A study of Mus musculus with 12 samples.

Results

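The metallothioneins were read in this series as 3 genes, *Mt1* (ENSMUSG00000031765), *Mt2* (ENSMUSG00000031762) and *Mt3* (ENSMUSG00000031760), which were found by symbol among the 54833 genes of the count table. They were chosen by the measured rise of *Mt1* after intracerebral hemorrhage (ICH), so that the differences between ICH and sham mice are given for all 3 genes as a description, without a test. Tests were kept for age, for the relation of the genes to each other and for other genes of metal handling and its inducers. RNA was sequenced from the caudate putamen of wild-type male C57BL/6 mice at 24 h after surgery, in 12 samples that each pooled tissue of 2 to 3 animals. The young ICH group (8 to 10 weeks) and the aged ICH group (20 to 22 months) received type IV collagenase, which breaks down vessel walls and lets blood enter the striatum, and tissue around the hematoma was taken. The young sham and aged sham groups of the same ages had sham surgery, and each of the 4 groups held 3 samples. Every *P* value therefore refers to the variation among such pools. The depth was 28410896 to 37785160 reads counted on genes per sample.

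Metallothioneins are small proteins rich in cysteine that hold zinc and copper ions in metal-thiolate clusters and also react with oxidants. Transcription of *Mt1* and *Mt2* is induced by zinc through the sensor MTF1 at metal response elements (MREs), and also by glucocorticoids, by IL-6 family cytokines through STAT3 and by oxidative stress, and in the injured brain both are known from astrocytes and other non-neuronal cells. *Mt3*, first described as growth inhibitory factor, is enriched in brain and responds little to metals in most cells. All 3 genes lie on the plus strand of chromosome 8 (GRCm38), *Mt3* at 94152607 to 94154146, *Mt2* at 94172664 to 94173568 and *Mt1* at 94179082 to 94180327, each with 3 exons in its first annotated transcript. With *Mt4*, a gene of squamous epithelium at 94137197 to 94139031, they form a cluster of 43131 bp.

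The coding sequences of the first annotated transcripts (GENCODE vM21, GRCm38) are shown because the cysteine codons, in capitals, define the family and because the likeness of the genes decides whether reads could be confused between them.
Mt1: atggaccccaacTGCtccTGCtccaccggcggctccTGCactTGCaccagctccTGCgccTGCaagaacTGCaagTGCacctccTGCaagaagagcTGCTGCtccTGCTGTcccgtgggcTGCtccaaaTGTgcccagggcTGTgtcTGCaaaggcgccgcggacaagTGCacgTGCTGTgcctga
Mt2: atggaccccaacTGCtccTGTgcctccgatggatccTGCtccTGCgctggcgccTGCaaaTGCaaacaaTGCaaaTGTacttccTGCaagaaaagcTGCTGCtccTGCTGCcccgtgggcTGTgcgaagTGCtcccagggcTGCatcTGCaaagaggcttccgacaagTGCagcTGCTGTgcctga
Mt3: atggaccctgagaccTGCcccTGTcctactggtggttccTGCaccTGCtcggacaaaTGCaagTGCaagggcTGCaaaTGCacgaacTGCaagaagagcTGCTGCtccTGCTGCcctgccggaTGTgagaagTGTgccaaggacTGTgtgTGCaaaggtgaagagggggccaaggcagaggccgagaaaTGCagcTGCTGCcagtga
Each held 20 cysteine codons, which is 32.8% of the 61 codons of *Mt1* and *Mt2* and 29.4% of the 68 codons of *Mt3*. *Mt1* and *Mt2* were identical at 79.6% of aligned coding bases, whereas *Mt3* shared 66.2% with *Mt1* and 67.6% with *Mt2*. The longest identical run between any pair was 27 bases, and no window of 50 bases in a transcript of this family was found in another member, so a read of that length would have pointed to a single member.

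The windows around the transcription starts are shown next because MREs are what ties *Mt1* and *Mt2* to zinc. Each runs from 250 bases before the RefSeq start to 50 bases after it (GRCm38.p6, plus strand), at chr8:94178839-94179138 for *Mt1*, chr8:94172368-94172667 for *Mt2* and chr8:94152357-94152656 for *Mt3*, and capitals mark the MRE core, searched as TGCACNC and TGCGCNC on both strands.
Mt1: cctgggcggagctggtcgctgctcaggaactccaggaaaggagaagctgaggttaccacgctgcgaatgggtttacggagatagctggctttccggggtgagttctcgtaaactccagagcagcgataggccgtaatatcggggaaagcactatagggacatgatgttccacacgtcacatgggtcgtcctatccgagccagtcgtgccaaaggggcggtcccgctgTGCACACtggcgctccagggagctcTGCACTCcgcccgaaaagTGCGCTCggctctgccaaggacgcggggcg
Mt2: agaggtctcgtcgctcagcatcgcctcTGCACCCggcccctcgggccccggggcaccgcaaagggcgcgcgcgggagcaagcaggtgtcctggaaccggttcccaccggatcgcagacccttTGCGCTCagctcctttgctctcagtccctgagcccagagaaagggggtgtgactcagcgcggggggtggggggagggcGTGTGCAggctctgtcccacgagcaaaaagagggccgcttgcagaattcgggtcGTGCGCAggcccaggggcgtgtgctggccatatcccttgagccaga
Mt3: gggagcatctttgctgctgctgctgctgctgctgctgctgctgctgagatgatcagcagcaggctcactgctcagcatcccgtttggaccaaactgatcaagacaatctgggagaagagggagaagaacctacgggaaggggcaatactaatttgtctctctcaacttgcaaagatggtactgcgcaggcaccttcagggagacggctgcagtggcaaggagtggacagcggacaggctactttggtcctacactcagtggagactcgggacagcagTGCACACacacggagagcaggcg
The core occurred 3 times in the window of *Mt1*, 4 times in that of *Mt2* and once in that of *Mt3*. Of the 32851 RefSeq windows of the same length, 25.7% held at least 1 core, 1.97% at least 3 and 0.518% at least 4. An antioxidant response element core (TGACNNNGC, present in 12.4% of windows) was found in the window of *Mt2* at positions -79 to -71 from the start. It was in neither of the other two windows, and a STAT core (TTCNNNGAA, 8.3% of windows) was in none of the 3. The MRE cores of *Mt1* lay at -23 to -17, 3 to 9 and 21 to 27, near the end of its window. Bases beyond the windows were not searched, so counts and absences hold for the windows and not for the whole promoters. A match describes letters in these windows and not the binding of a factor.

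*Mt1* transcripts were more abundant after ICH in both ages. In CPM, counts scaled to the normalized library size, the young sham samples held 151, 129 and 162 and the young ICH samples 485, 428 and 464. The aged sham samples held 160.3, 138 and 203 CPM, and the aged ICH samples 499, 413 and 501. Each ICH sample lay above each sham sample of either age, and the lowest ICH sample of the young mice stood 2.64-fold above the highest young sham sample. The mean rose from 147 ± 16.9 to 459 ± 29.0 CPM (SD, n = 3) in young mice, a log2FC of 1.64 ± 0.14 (SE) or 3.12-fold, and from 167 ± 33.3 to 471 ± 50.1 CPM in aged mice, a log2FC of 1.49 ± 0.14 or 2.82-fold. By the gain in CPM, *Mt1* was number 18 of the 21495 genes that passed the filter on low counts in young mice, and number 18 in aged mice as well, while by log2FC it was number 408 and number 366. In FPKM, which are divided by gene length and so allow genes to be ranked, it moved from place 220 to place 39 in young mice and from 165 to 40 in aged mice. These places depend on the length used for *Mt1*, 1246 bases, against 549 in its first transcript.

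*Mt3* was also higher after ICH, by a smaller factor. The young sham samples held 117, 112 and 115 CPM and the young ICH samples 160.0, 139.8 and 162 CPM. The aged sham samples held 99.5, 117 and 110.1 CPM and the aged ICH samples 177, 153 and 131 CPM. The ICH and sham samples did not overlap at either age, although the lowest aged ICH sample was only 1.12-fold above the highest aged sham sample. The log2FC was 0.43 ± 0.10 in young mice (1.34-fold) and 0.50 ± 0.10 in aged mice (1.41-fold). Because *Mt3* started at a high level, its mean gain was 39.3 CPM in young and 44.8 CPM in aged mice, and it moved from place 256 to place 146 by FPKM in young mice and from 254 to 139 in aged mice.

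*Mt2* was counted in few reads. The raw counts were 18, 12 and 27 in young sham, 95, 90 and 75 in young ICH, 11, 10 and 38 in aged sham, and 130, 41 and 94 in aged ICH samples. The groups did not overlap at either age, but the spread was wide in aged mice, where the third sham sample came close to the second ICH sample. Means were 0.590 ± 0.267 and 2.71 ± 0.319 CPM in young sham and young ICH mice (log2FC 2.20 ± 0.48) and 0.613 ± 0.455 and 2.66 ± 1.15 CPM in aged sham and aged ICH mice (log2FC 2.09 ± 0.48). Without the third aged sham sample the log2FC of aged mice was 2.91, and without the first aged ICH sample it was 1.80. A lack of overlap with ICH higher was seen in 3 of 3 metallothioneins at each age, and in 18.5% of all tested genes in young and 17.8% in aged mice; the genes were proposed for this difference, so nothing is read from the count.

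**Figure D1:**
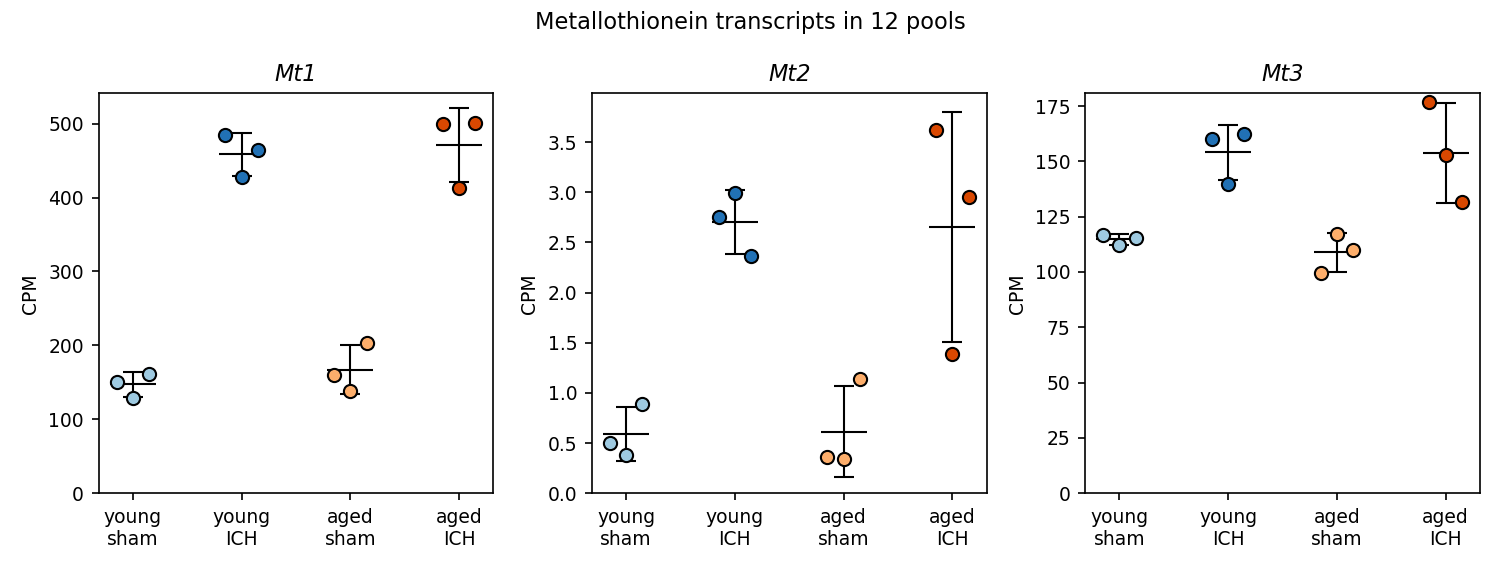
CPM of *Mt1*, *Mt2* and *Mt3* (y axes, each from 0) in the 4 groups (x axis). Points are the 3 pools of a group in the order of their numbers, and the lines give the mean and SD. For every gene the ICH points lie above the sham points of the same age, and *Mt2* is plotted on a scale of a few CPM.

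The low count of *Mt2* needs its annotation beside it. A single-exon antisense gene on the minus strand, *Gm45774* at 94170748 to 94173412, covers 432 of the 588 exon bases of *Mt2* (73.5%) and leaves 156 bases free, from 94173413 to 94173568, while no annotated gene overlaps an exon of *Mt1* or *Mt3*. The library kit named in the labels does not mark strand, and counting with FeatureCounts leaves out reads that touch more than 1 gene unless told otherwise; its setting here is not given in the sources read. *Gm45774* itself held 10 to 17 counts in sham and 24 to 59 in ICH samples, with log2FC of 1.89 ± 0.33 (adjusted *P* = 0.0038) in young and 1.72 ± 0.33 (adjusted *P* = 0.0098) in aged mice. Reads of *Mt2* and of its antisense gene cannot be told apart in the shared bases, so the deposited level of *Mt2* cannot be read as an amount of RNA beside the other metallothioneins, and the part of the overlap in its low count was not tested. *Mt4* held 0 counts in 9 samples and 6, 1 and 2 counts in the other samples, too few for a test.

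Between the ages, no difference was called for any metallothionein. The order of mean CPM was young sham, aged sham, young ICH and aged ICH for *Mt1*, with overlapping ranges between the sham groups and between the ICH groups and a gap between 203 and 413 CPM that separated sham from ICH samples. The sham groups of *Mt2* (0.590 and 0.613 CPM) and of *Mt3* (115 and 109 CPM) also overlapped, as did their ICH groups, where the means of *Mt3* were 154 and 154 CPM. In edgeR's quasi-likelihood test with adjustment over all genes, 0 of 3 passed in aged sham vs. young sham mice, where 0.102% of all genes did, and 0 of 3 in aged ICH vs. young ICH mice, where 0.0558% did. None of the 3 had an unadjusted *P* under 0.05 in either comparison, where 12.3% and 9.54% of all genes did. DESeq2 and limma called 0 of 3 as well, beside 268 and 192 of 21495 genes for DESeq2 and 16 and 17 for limma.

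For *Mt1* the log2FC was 0.18 ± 0.14 in sham mice (95% confidence interval -0.11 to 0.48, adjusted *P* = 0.617) and 0.04 ± 0.14 in ICH mice (-0.26 to 0.33, adjusted *P* = 0.952), with the aged mice as the first group. The corresponding intervals of *Mt3* were -0.30 to 0.15 in sham mice (adjusted *P* = 0.811) and -0.22 to 0.22 in ICH mice (adjusted *P* = 0.995). Every one of these 4 intervals lay below the log2FC of *Mt1* after ICH in size. For *Mt2* they ran from -1.06 to 1.23 and from -0.95 to 0.91, so at its 10 to 130 counts a level up to 2.34-fold higher in aged sham mice lay within the interval.

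The response to ICH was then compared between the ages by the interaction term. It was -0.15 ± 0.19 for *Mt1* (95% confidence interval -0.57 to 0.27), -0.11 ± 0.67 for *Mt2* (-1.58 to 1.36) and 0.07 ± 0.14 for *Mt3* (-0.24 to 0.38) on the log2 scale, with a negative value meaning a smaller response in aged mice. All 3 had an adjusted *P* of 0.99991 in edgeR. The test called 0 of 21495 genes (0%), with 606 at an unadjusted *P* under 0.05 (2.82%) and none of them a metallothionein, and DESeq2 called 1 gene and limma 0. The comparisons of ICH with sham and of aged with young mice share groups, and their values are given side by side for that reason.

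**Figure D2:**
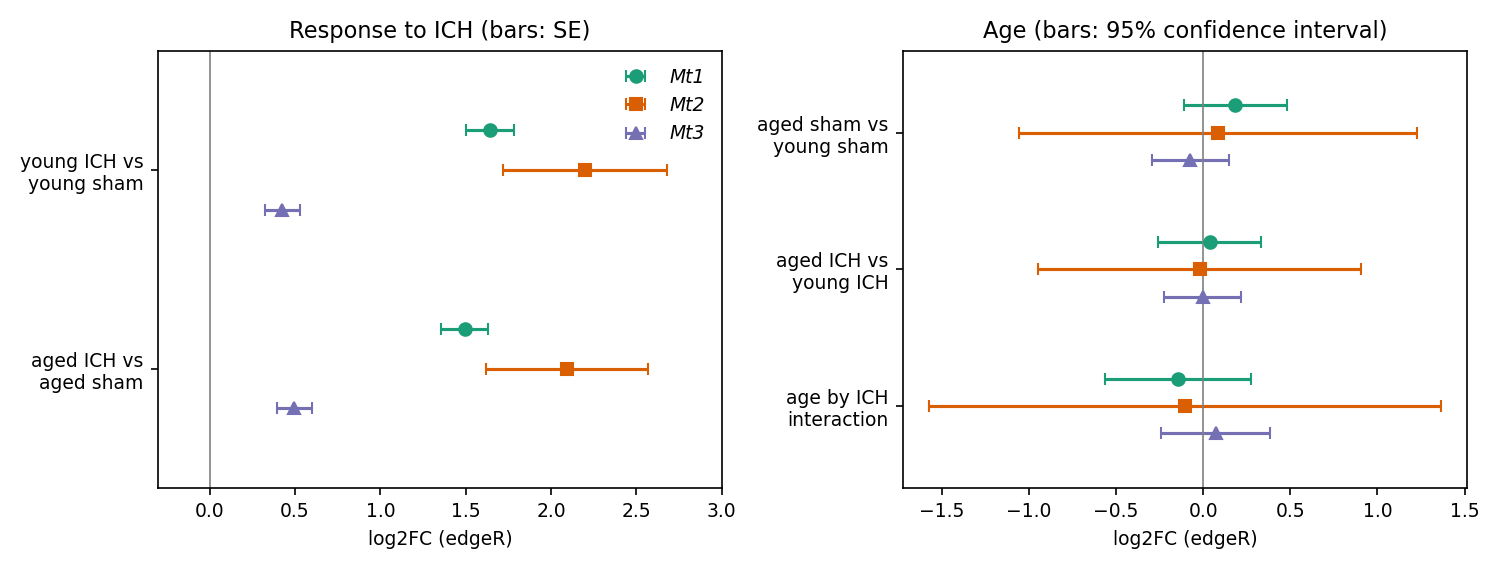
log2FC of *Mt1*, *Mt2* and *Mt3* from edgeR (x axes) for ICH against sham in each age (left, bars are SE, no test) and for age in sham mice, in ICH mice and as the interaction (right, bars are 95% confidence intervals). On the left *Mt3* lies at 0.43 and 0.50 and the others between 1.49 and 2.20, and on the right every interval includes 0 and those of *Mt2* are the widest.

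The balance of *Mt1* and *Mt3* shifted toward *Mt1* after ICH. In the deposited FPKM, *Mt1* and *Mt3* were close to each other in sham tissue, with a mean ratio of *Mt1* to *Mt3* of 1.10 ± 0.109 in young sham and 1.32 ± 0.291 in aged sham mice, whereas it was 2.55 ± 0.0929 in young ICH and 2.66 ± 0.518 in aged ICH mice. The closeness depends on the gene length used. By the length of the first transcript, mean FPKM of *Mt1* and *Mt3* were 257 and 205 in young sham and 301 and 200 in aged sham mice. After ICH they were 852 and 293 in young and 888 and 297 in aged mice. *Mt2*, most of whose exon bases may be uncounted because of *Gm45774*, had deposited FPKM of 0.481% to 1.54% of those of *Mt1*, so sums and shares over the family describe *Mt1* and *Mt3* and leave the amount of *Mt2* unknown. With this limit, the summed deposited FPKM of the 3 genes went from 217 ± 16.2 to 527 ± 39.0 in young mice and from 234 ± 29.3 to 545 ± 48.3 in aged mice. *Mt3* made up 47.6% ± 2.6 of this sum in young sham, 27.9% ± 0.78 in young ICH, 43.4% ± 5.8 in aged sham and 27.4% ± 3.6 in aged ICH mice, and no ICH sample reached the share of a sham sample of its age. The fall follows from the larger response of *Mt1* above and is no separate result.

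Between the ages these quantities differed by less than the tests could call. The share of *Mt3* was 2.36 percentage points lower in aged than in young mice over both surgeries (two-sided exact permutation test within surgeries, *P* = 0.295, with 0.005 the smallest value that its 400 arrangements allow). The ratio of the deposited FPKM of *Mt2* to *Mt1*, which carries the same limit, differed by -0.21 on the log2 scale, aged minus young (exact permutation *P* = 0.46). These are 2 tests of a family ratio, and neither passed before adjustment.

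**Figure D3:**
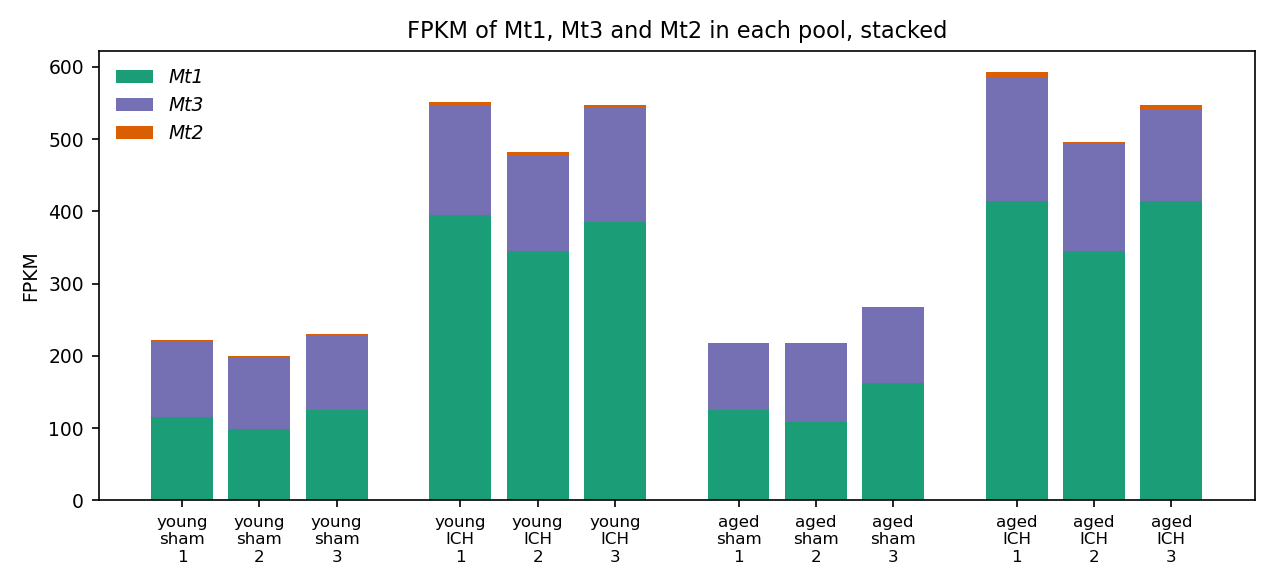
FPKM of *Mt1*, *Mt3* and *Mt2* stacked in each of the 12 pools (y axis from 0, x axis the group and the number of the pool). The stacks reach 199 to 268 in sham and 482 to 593 in ICH pools, and *Mt2* is a thin line at the top. An antisense gene overlaps *Mt2*, and the part of the overlap in its low count was not tested.

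Samples of a group also differed from each other. *Mt1* was lowest in the second sample in 4 of 4 groups and *Mt2* in 3 of 4, although the numbers do not pair samples across all genes. After the group means had been subtracted, the deviations of *Mt1* and *Mt2* on the log2 CPM scale had a Pearson correlation of 0.88 over the 12 samples, while those of *Mt1* and *Mt3* had 0.05 and those of *Mt2* and *Mt3* 0.09. These are descriptions over samples that share a library and a depth for every gene. The largest deviation of *Mt1* was in the third aged sham sample, 0.30 above its group mean, where *Mt2* was 1.03 above.

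In that sample the summed level of 10 neutrophil genes was 51.5 CPM against 20.5 and 10.8 in the other aged sham samples, that of 9 monocyte and macrophage genes 74.7 against 45.9 and 34.7, and that of 10 reactive astrocyte genes 1568 against 1468 and 597 CPM. *Lcn2* is on both the neutrophil and the reactive astrocyte list, so these sums do not separate the cell types. *Hmox1*, the enzyme that degrades heme, ranged from 6.51 to 84.8 CPM in aged sham and from 7.32 to 16.2 in young sham mice. The part of these values in the spread of *Mt1* among aged sham mice was not tested.

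**Figure D4:**
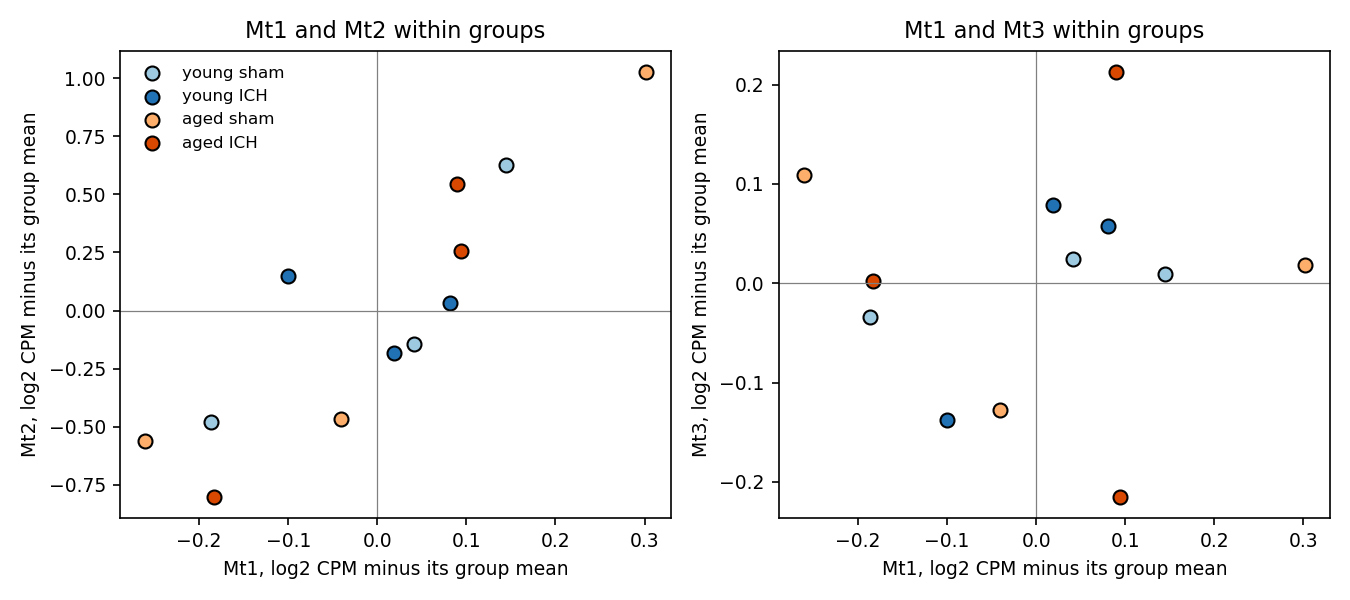
Deviation of each of the 12 samples from its group mean in log2 CPM, *Mt1* on the x axes against *Mt2* (left) and *Mt3* (right), colored by group. The left points rise together toward the third aged sham sample, except in young ICH. There the second sample is lowest for *Mt1* (-0.10) and highest for *Mt2* (0.15). The right points show no common rise.

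The genes whose pattern over the 12 samples was most like that of *Mt1*, by Pearson correlation of log2 CPM among 14877 genes, were *Cebpa* (0.99), *Rhoc*, *Il6ra*, *Eef1d* and *Ostf1* (0.98). *Cebpa* encodes a transcription factor of the C/EBP family and *Il6ra* the receptor chain that binds IL-6. For *Mt2* they included *Fxyd5* (0.97), *Adam15*, *Ppard* and *Slc3a2* (0.96), and for *Mt3* they were *Rpl41* (0.96), *Rpl36*, *Txndc17*, *Npm3* and *Rpl28* (0.95). Of the latter, *Rpl41*, *Rpl36* and *Rpl28* are genes of ribosomal proteins, which have many processed copies in the genome, so that their counts are uncertain. All of these correlations include the difference between ICH and sham samples, for which *Mt1* was chosen. Genes that rose after ICH stand high by that difference, so no link to a metallothionein is read from these lists.

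With the group means removed, the genes most like *Mt1* were *Gpr183* (0.95), *Gpr137b-ps*, *Tifa*, *Itgam* and *Il2rg* (0.91). *Itgam* encodes CD11b of myeloid cells and *Il2rg* the shared cytokine receptor chain of lymphocytes. The closest to *Mt2* were *Ppard* (0.93), *Fzd1*, *Gm48583*, *Mars* and *H2afj* (0.91), and the closest to *Mt3* were *Ankrd55* (0.93), *Rps29*, a gene known only by a number of the authors, *Rpl36* and *Polr2m* (0.92). *Ppard* and *Rpl36* stood on both lists of their metallothionein. The samples compared carry the same differences in depth and composition for all of these genes. The genes named had the highest values of the 14877 searched (14878 for *Mt2*), each from 12 samples with the group means removed. Among so many genes and so few samples, values this high can arise without a link, and how often was not tested. No link to a metallothionein is read from these lists either.

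Among the genes that supply or sense the metals, those of zinc moved in both directions. The list holds *Mtf1* and the families of zinc exporters (*Slc30a*) and importers (*Slc39a*), taken by family and not by the metal that each member carries. Of the 24 tested, 4 were upregulated and 1 downregulated after ICH in young mice, where 19.1% of all genes were called (9.89% higher and 9.23% lower). In aged mice 3 rose and 3 fell after ICH, where 13.2% of all genes were called (7% higher and 6.15% lower). The median log2FC of the list was -0.01 in both, beside 0.02 and 0.00 over all genes tested. *Mtf1*, which encodes the zinc sensor, had 45.6 and 43.0 CPM in young sham and young ICH mice (log2FC -0.09 ± 0.06, adjusted *P* = 0.367) and 44.9 and 41.0 CPM in aged sham and aged ICH mice (-0.13 ± 0.06, adjusted *P* = 0.195). *Slc30a1*, which encodes the exporter ZnT1 and is itself a target of MTF1, had log2FC of -0.04 ± 0.09 (adjusted *P* = 0.796) and -0.24 ± 0.09 (adjusted *P* = 0.108).

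The importers *Slc39a14* and *Slc39a1* were upregulated at both ages. *Slc39a14* (ZIP14), which is known to be induced by IL-6 and carries zinc and iron, held 49.6 to 55.0 CPM in young sham and 90.4 to 111 in young ICH samples, and 43.3 to 65.1 in aged sham and 101 to 107 in aged ICH samples. The groups did not overlap, and the log2FC was 0.91 ± 0.12 (adjusted *P* = 0.0017) in young and 0.90 ± 0.12 (adjusted *P* = 0.0039) in aged mice. *Slc39a1* was upregulated by 0.67 ± 0.13 (adjusted *P* = 0.0051) in young and by 0.65 ± 0.13 (adjusted *P* = 0.0099) in aged mice. Its call in aged mice ended without the first aged ICH sample (adjusted *P* = 0.0508).

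Other genes of these families had smaller changes or larger errors. The importers *Slc39a2* (0.33, adjusted *P* = 0.0097) and *Slc39a8* (0.50, adjusted *P* = 0.0217) were upregulated in young mice, and *Slc39a8* in aged mice (0.46, adjusted *P* = 0.0403). *Slc39a10* was downregulated in young mice (-0.58, adjusted *P* = 0.0149), and *Slc30a10* (-0.73, adjusted *P* = 0.0189), *Slc30a9* (-0.23, adjusted *P* = 0.024) and *Slc39a12* (-0.58, adjusted *P* = 0.0236), a transporter of astrocytes and neurons, in aged mice. With single samples left out, the calls of *Slc39a1*, *Slc39a8*, *Slc39a12*, *Slc30a9* and *Slc30a10* in aged mice and of *Slc39a8* and *Slc39a10* in young mice were lost at least once, with adjusted *P* up to 0.132.

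Genes of copper handling that were called moved in 1 direction. Of 15 tested, 4 were upregulated in young ICH and 3 in aged ICH mice and the others were not called, beside 9.89% and 7% of all genes upregulated, with medians of 0.27 at both ages. *Cp*, encoding the copper oxidase ceruloplasmin, was upregulated by 1.26 ± 0.21 (adjusted *P* = 0.0034) and 1.05 ± 0.21 (adjusted *P* = 0.0107). The metalloreductases *Steap4* (2.91 ± 0.63, adjusted *P* = 0.0095) and *Steap3* (0.71 ± 0.13, adjusted *P* = 0.0043) and the transporter *Slc31a2* (0.41 ± 0.11, adjusted *P* = 0.0271) rose in young mice, the call of *Slc31a2* being lost with 5 of the 12 samples left out in turn (adjusted *P* up to 0.103) and with only the compared groups fitted. In aged mice *Steap4* (2.09 ± 0.62, adjusted *P* = 0.0471) and *Steap3* (0.44 ± 0.13, adjusted *P* = 0.0487) lay close to the threshold, and most single samples left out ended their call (10 and 9 of 12).

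Counted over zinc and copper genes together, 9 of 39 were called at each age, beside 19.1% of all genes in young and 13.2% in aged mice. In aged mice the count fell to 2 without the first aged ICH sample, to 3 without the third aged ICH or the second aged sham sample and to 4 without the first aged sham sample. The uptake receptors of secreted metallothionein, *Lrp1* and *Lrp2*, were not called, with log2FC of 0.02 ± 0.09 and 0.81 ± 0.61 in young and of 0.04 ± 0.09 and -0.57 ± 0.67 in aged mice.

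Of the lists for inducers of metallothionein transcription, that of IL-6 and STAT3 had the largest share of calls. The lists were chosen with earlier results of these data known, so no ranking of the inducers is read from the shares. Of 19 tested, 14 were upregulated in young ICH and 12 in aged ICH mice and the others were not called, beside 9.89% and 7% of all genes upregulated, with median log2FC of 1.73 and 1.31. *Stat3*, the transcription factor itself, had 83.8 to 105 CPM in young sham and 174 to 210 in young ICH samples, and 80.5 to 134 in aged sham and 193 to 219 in aged ICH samples. Its groups did not overlap, and the log2FC was 1.03 ± 0.16 (adjusted *P* = 0.0022) and 0.93 ± 0.16 (adjusted *P* = 0.0061).

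Several cytokines and receptors of this list were called with it. *Il6* had a log2FC of 2.50 ± 0.49 (adjusted *P* = 0.006) in young and 2.97 ± 0.44 (adjusted *P* = 0.0046) in aged mice, at mean levels of 0.189 and 1.07 CPM and of 0.308 and 2.44 CPM in sham and ICH. *Il11* (3.08 and 2.57), *Il6ra* (1.14 and 0.85), *Clcf1* and *Osmr* (1.73 and 1.43) were upregulated in both ages, as were *Cebpd* (2.09 and 2.12), *Cebpb* (1.98 and 1.93) and *Pim1* (0.69 and 0.97) of the response genes. *Socs3*, the feedback inhibitor, rose by 2.17 ± 0.40 (adjusted *P* = 0.0046) and 1.81 ± 0.39 (adjusted *P* = 0.0137), the latter lost without the first aged ICH sample (adjusted *P* = 0.0587). Called in young mice were also *Lif*, *Il6st*, *Osm* and *Bcl3*, and in aged mice *Osm* and *Bcl3*. Leaving out single samples ended the call of *Lif*, *Il6st* and *Osm* in young and of *Osm* and *Bcl3* in aged mice (adjusted *P* up to 0.128).

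The glucocorticoid list holds the receptor and its targets. Of 14 tested, 4 were upregulated and 1 was downregulated in young ICH mice, beside 9.89% and 9.23% of all genes, and 3 were upregulated in aged ICH mice, beside 7% of all genes. The median log2FC was 0.39 in young and 0.20 in aged mice, with 9 of 14 positive at each age. *Angptl4*, a lipase inhibitor, rose by 2.72 ± 0.37 (adjusted *P* = 0.0017) and 2.04 ± 0.35 (adjusted *P* = 0.0067), and *Pdk4*, a kinase of pyruvate dehydrogenase, by 1.11 ± 0.16 (adjusted *P* = 0.002) and 0.75 ± 0.16 (adjusted *P* = 0.0138). *Fkbp5*, a chaperone of the receptor, rose in young mice (0.72 ± 0.15, adjusted *P* = 0.0076) and had a log2FC of 0.45 ± 0.15 in aged mice (adjusted *P* = 0.0667). *Errfi1* was called in both (0.41 and 0.54). *Nr3c1*, the receptor itself, was downregulated in young mice (-0.32 ± 0.09, adjusted *P* = 0.0359) and not called in aged mice (-0.28 ± 0.09, adjusted *P* = 0.0721), and these differences between the ages were not called by the interaction. The calls of *Nr3c1* and *Errfi1* in young and of *Errfi1* and *Pdk4* in aged mice were lost with 2 to 5 of the 12 samples left out in turn, with adjusted *P* up to 0.141.

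Genes of the NRF2 response to oxidative stress were called in 7 of 15 at each age, all upregulated, beside 9.89% and 7% of all genes. The other 8 were not called at either age, and the median log2FC was 0.30 in young and 0.26 in aged mice. *Hmox1* rose from 7.32 to 16.2 CPM in young sham to 146 to 219 in young ICH samples (log2FC 3.81 ± 0.68, adjusted *P* = 0.004), and from 6.51 to 84.8 in aged sham to 159 to 273 in aged ICH samples (2.41 ± 0.63, adjusted *P* = 0.0285). *Nfe2l2*, which encodes NRF2, was upregulated by 0.95 ± 0.18 (adjusted *P* = 0.0046) and 0.65 ± 0.17 (adjusted *P* = 0.032), and *Osgin1* (1.43 and 1.24), *Txnrd1* (0.48 and 0.50), *Txn1* (0.41 and 0.47) and *Prdx1* (0.44 and 0.26) of the thioredoxin and growth arrest pathways were called at both ages. *G6pdx* (0.30) was called in young mice and *Gsr* in aged mice. In aged mice the calls of *Hmox1*, *Nfe2l2*, *Prdx1* and *Gsr* were lost with single samples left out, among them the first aged ICH sample in each case, with adjusted *P* up to 0.173, and in young mice that of *G6pdx* (up to 0.127).

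Over the 3 inducer lists together, 26 of 48 genes were called in young mice, 25 of them upregulated, and 22 in aged mice, all upregulated, beside 19.1% and 13.2% of all genes called. Without the first aged ICH sample the count of aged mice was 13. In the age comparisons edgeR called 0 of the 39 metal-handling and 0 of the 48 inducer genes. At an unadjusted *P* under 0.05 there were 6 and 12 between the ages of sham mice, where 12.3% of all genes lay there, 4 and 8 between the ages of ICH mice (9.54%), and 1 and 0 for the interaction. DESeq2 called 0 and 2 in sham mice, 1 and 1 in ICH mice and 0 and 0 for the interaction, and limma called 0 in each. Of all 21495 genes, DESeq2 called 268, 192 and 1 in these comparisons, and limma 16, 17 and 0.

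**Figure D5:**
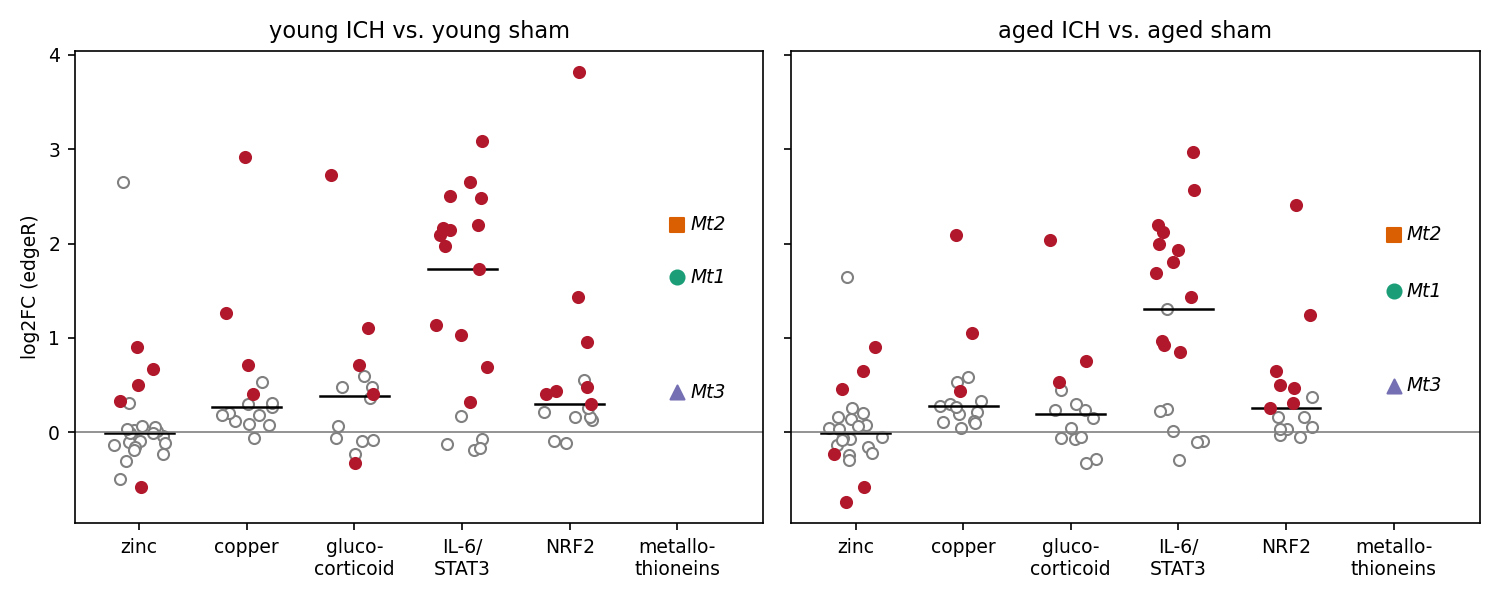
log2FC of the tested genes of the zinc, copper, glucocorticoid, IL-6/STAT3 and NRF2 lists (x axis) in young ICH vs. young sham mice (left) and aged ICH vs. aged sham mice (right), with the metallothioneins at the right of each panel. Filled red points passed an adjusted *P* of 0.05, open points did not, and lines are list medians, which stay near 0 for zinc and reach 1.73 and 1.31 for IL-6/STAT3.

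Cell type markers were read in the same samples, and in bulk tissue fewer cells of a type and less RNA per cell cannot be told apart. Of all genes, 9.89% were upregulated after ICH in young and 7% in aged mice, and 9.23% and 6.15% were downregulated. All 10 reactive astrocyte genes were upregulated at both ages, and their summed level was 810.2 to 1157 CPM in young sham, 2639 to 3998 in young ICH, 597 to 1568 in aged sham and 2831 to 3599 in aged ICH samples. Among them, *Osmr* is also on the IL-6 and STAT3 list, *Steap4* on the copper list and *Lcn2* on the neutrophil list, so the calls of these lists are not independent. Of 12 general astrocyte genes, 5 were upregulated in young mice, and in aged mice 1 was upregulated and 2 were downregulated. Their sums overlapped in young mice, at 6337 to 6856 CPM in sham and 6393 to 6905 CPM in ICH samples. In aged mice they were 6520 to 7121 CPM in sham and 5806 to 6412 CPM in ICH samples, without overlap. Endothelial genes were upregulated in 7 of 10 in young and 5 of 10 in aged mice, with sums of 459 to 583 and 675 to 731 CPM in young sham and young ICH and of 498 to 575 and 614 to 706 CPM in aged sham and aged ICH samples.

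Genes of blood leukocytes were higher as well. Some of red blood cells were called in young mice, but this difference between the ages was not called by the interaction. Here too, 9.89% of all genes were upregulated in young and 7% in aged mice, and 9.23% and 6.15% were downregulated. Neutrophil genes were upregulated in 6 of 8 tested in young and in 5 of 8 in aged mice, and their sums were 20.3 to 29.5 (sham) and 131 to 311 CPM (ICH) in young and 10.8 to 51.5 and 159 to 202 CPM in aged mice, while the defining marker *Ly6g* had 0 to 4 counts. Monocyte and macrophage genes were upregulated in 5 and 4 of 9, with sums of 28.5 to 31.7 and 75.4 to 118 CPM in young and 34.7 to 74.7 and 113 to 127 CPM in aged mice. Of 5 tested red blood cell genes, 3 were upregulated in young mice and none was called in aged mice by edgeR (1 at an unadjusted *P* under 0.05), with sums of 5.2 to 22.4 and 29.0 to 121 CPM in young and 27.9 to 39.5 and 24.4 to 82.0 CPM in aged mice. Of 10 microglia genes, *P2ry12* and *Siglech* were downregulated at both ages and *Fcrls* was upregulated in aged mice.

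Markers of the dissected region spread widely. The 10 striatal neuron genes summed to 1524 to 3049 CPM in sham and 327 to 1926 in ICH samples. At both ages 0 of 10 had a positive log2FC, with medians of -0.96 in young and -1.19 in aged mice. Even so, edgeR called none (1 in young and 1 in aged mice at an unadjusted *P* under 0.05, where 33.2% and 28.9% of all genes lay). Of 10 oligodendrocyte genes, 5 were downregulated in aged ICH mice, beside 6.15% of all genes, and none was called in young mice. Of 8 choroid plexus genes none was called (0 and 3 at an unadjusted *P* under 0.05), and they summed to 4110 CPM in the third young ICH sample and to 1568 and 1992 in the first and second aged ICH samples, against at most 496 in all others. *Mt1* was 464 CPM in the third young ICH sample, between the other young ICH samples, and 499 and 413 in the first and second aged ICH samples against 501 in the third. The part of any of these cell types in the levels of the metallothioneins was not tested.

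Genes around the cluster were looked up next. Of 18 other genes within 250 kb, 14 were tested, and *Gm45774*, which shares bases with *Mt2*, was the single call in young mice, where 19.1% of all genes were called. In aged mice *Gm45774* was upregulated and *Nudt21*, a subunit of the cleavage factor of mRNA 3′ ends, was downregulated (log2FC -0.27 ± 0.07, adjusted *P* = 0.0233), which makes 2 of 14 beside 13.2% of all genes. The number called was 2 in young mice without the second young ICH sample, and in aged mice it was 1 without the first or the third aged ICH sample or without any of the aged sham samples in turn.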

How the data were processed

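RNA-seq was analysed from 12 samples (4 groups of 3), grouped by the age, surgery and replicate number in their labels, and 0 sample columns were left unassigned. The authors aligned reads to GRCm38.p6 with HISAT2, took gene counts from featureCounts (Subread) and deposited raw counts and FPKM in one table. The kit does not mark strand, and settings for overlapping or multiply aligned reads are not given in the sources used here. The deposited FPKM imply lengths of 1246, 588 and 1066 bases for *Mt1*, *Mt2* and *Mt3*, the exon unions of GENCODE vM21.

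Counts were tested with edgeR 4.0.16 (quasi-likelihood, TMM, 12 samples in one fit, R 4.3.3) over the 21495 genes kept by filterByExpr (minimum count 10), all 3 metallothioneins among them. A gene was called at a Benjamini-Hochberg adjusted *P* under 0.05 over all genes tested. CPM use normalized library sizes, and log2 CPM have a prior count of 2. Alternatives were DESeq2 1.42.0, limma 3.58.1 on log2(FPKM + 1) and log2(FPKM + 0.1), size factors, no filter, the compared groups alone, a replicate block, the FC and *P* criterion of the paper and each sample left out. Scripts were tested on simulated data.

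The members and gene lists were chosen with earlier results of these data known. Named were the metallothioneins, list genes called after ICH, *Mtf1*, *Slc30a1*, *Stat3* and *Nr3c1* in any case, described markers, neighbors within 250 kb, and for each member the 5 most correlated genes with and without group means among genes with a mean log2 CPM above 1, of which 1 is not reported here. Depth was 28410896 to 37785160 counts, and *Mt2* was limited by its low count. No pair of samples held identical values.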

Additional observations from a re-analysis of the deposited data

How the results depend on the processing

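The log2FC of *Mt1* after ICH stayed between 1.55 and 1.73 in young and 1.37 and 1.66 in aged mice, and that of *Mt3* between 0.39 and 0.51 and between 0.38 and 0.60, over the alternatives run. That of *Mt2* was 1.55 in young and 1.47 in aged mice with limma on log2(FPKM + 1), where its sham FPKM are close to the pseudocount, and 1.80 to 2.91 in aged mice with single samples left out. No age difference of a metallothionein was called under any alternative. Their signs turned in places, always at an adjusted *P* of at least 0.74. With single samples left out, aged ICH vs. young ICH ran from -0.0096 to 0.12 for *Mt1*, -0.31 to 0.28 for *Mt2* and -0.12 to 0.10 for *Mt3*, aged sham vs. young sham from -0.73 to 0.49 for *Mt2*, and the interaction from -0.27 to 0.019, -0.51 to 0.71 and -0.042 to 0.17 for *Mt1*, *Mt2* and *Mt3*. limma gave -0.032 for *Mt2* in sham mice on log2(FPKM + 0.1) and 0.013 for *Mt3* in ICH mice with either pseudocount.

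With single samples left out, 2 to 11 metal-handling, 13 to 22 inducer and 1 to 3 neighboring genes were called in aged mice, and 1 to 2 neighboring genes in young mice. The cause was not tested. Of 1254 values for 66 calls of list genes, 1116 kept their side of the threshold, 138 lost it and 0 reversed. The share of *Mt3* computed from the first transcript's length, chosen after seeing the data, was 44.4% and 40.3% in young and aged sham mice and at most 25.5% in the ICH groups.

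Same-numbered samples of different groups had correlations of their deviations from -0.454 to 0.235, and other pairs -0.374 to 0.410, so the numbers do not pair the samples. A replicate block changed the calls from 4110 to 3445 in young and from 2828 to 2433 in aged ICH vs. sham mice, from 22 to 12 and from 12 to 8 between the ages of sham and ICH mice, and called 0 for the interaction. It gave 0.18 for *Mt1* in aged sham vs. young sham mice and changed no call of a metallothionein. Among list genes it ended the calls of *Nr3c1* in young and of *Prdx1* and *Steap3* in aged mice.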
